A study of Mus musculus with 8 samples.

Results

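The heat shock proteins and their co-chaperones were examined in stromal cells sorted from mouse melanomas, because these genes are widely used as markers of handling stress in sorted cells. Members were taken by gene symbol, as the HSPA, HSPB, HSPD, HSPE, HSPH and HSP90 genes, the DNAJA, DNAJB and DNAJC genes, BAG1 to BAG6 and HSF1 to HSF5, leaving out pseudogenes. This gave 83 of the 53801 genes of the count table, of which 72 reached a mean of 10 raw counts over the 8 libraries. MO5 tumours (B16 melanoma cells made to express ovalbumin) were implanted under the skin of C57Bl/6 mice aged 8 to 12 weeks and collected at day 8. Both groups came from ADAM12-GFP mice, which carry a bacterial artificial chromosome in which Adam12 sequences drive Cre-Ires-GFP, although the labels enter GFP+ and GFP- as a genotype. CD45-, CD31- cells positive for PDPN and PDGFRα were sorted into ADAM12+ (GFP+) and ADAM12- (GFP-) cells, with 4 libraries per group, so that the group reports reporter fluorescence on the day of the sort and not the earlier history of a cell. Tumours had been digested with Liberase TL and DNase I, with repeated pipetting, before staining and sorting. By the study's methods a sample size counts mice unless stated otherwise, which makes the 4 libraries of a group 4 mice. The sources used here do not say whether GFP+ and GFP- libraries with the same replicate number share a mouse.

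Heat shock proteins are chaperones that bind unfolded or partly folded proteins. HSP70 proteins hold and release such clients in a cycle driven by ATP, in which J-domain proteins deliver the client and start ATP hydrolysis, and BAG proteins and HSP110 proteins release the nucleotide. HSP90 takes over clients that are close to their native state, HSP60 with its lid HSP10 folds proteins inside mitochondria, and small heat shock proteins keep damaged proteins from aggregating. Heat and proteotoxic stress free the transcription factor HSF1, which then drives a subset of these genes, best known among them Hspa1a, Hspa1b, Dnajb1, Hsph1 and Bag3. Many other members are transcribed constantly or serve one organelle.

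Total counts were 883144 to 17535099 in the GFP- and 8776925 to 31666734 in the GFP+ libraries, with GFP- replicate 3 the shallowest, so that its values rest on the fewest reads. Normalised counts were raw counts divided by the DESeq2 size factor of the library. Transcripts of the gated stromal cells were present in every library, and the 9 fibroblast markers summed to 28349 to 54426 CPM (counts scaled to the library total) in GFP- and 63766 to 64912 in GFP+ libraries, with 6 of 9 called higher in GFP+ cells by DESeq2 and 5 by edgeR (median log2 fold change 0.80). Melanocyte markers, which label the implanted tumour cells, summed to 2525 to 7789 CPM in GFP- and 370.2 to 1071 CPM in GFP+ libraries. All 10 of 10 were called lower in GFP+ cells by DESeq2 (9 by edgeR), with a median log2 fold change of -3.07, and none was at 0 in either group. Leukocyte markers (gated out as CD45+ cells) summed to 70.5 to 491 CPM in GFP- and 60.6 to 349 CPM in GFP+ libraries with Itgam at 0 throughout, and endothelial markers to 127 to 292 and 176 to 291 CPM. DESeq2 and edgeR called 0 genes of either list, with 0 leukocyte genes at an unadjusted p under 0.05 and 2 endothelial genes by DESeq2 and 1 by edgeR. Schwann cell markers summed to 63.4 to 167 and 19.4 to 45.9 CPM (3 of 7 called lower by DESeq2 and 1 by edgeR), pericyte markers to 35.6 to 103 and 54.2 to 132 CPM (1 of 7 called higher by DESeq2 and 0 by edgeR, with 1 at an unadjusted p under 0.05 by each), and keratinocyte markers to at most 32.2 CPM in any library, with Krt1 and Krt5 at 0 in GFP+ libraries. In bulk libraries such as these, fewer cells of a type cannot be told apart from less RNA per cell.

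Most of the chaperone network did not pass the test between ADAM12+ and ADAM12- cells, and the differences that did lay in 6 genes of 5 families. Hspa12a, Dnajb1, Hspb8 and Bag3 were higher in GFP+ cells, and Hspd1 and Dnajc2 were lower. These were 6 of the 72 members (8.33%) at a DESeq2 adjusted p under 0.05, against 9.42% of all 15283 genes tested. The 4 higher members compare with 4.66% of all genes called higher, and the 2 lower members with 4.76% called lower, so that the members were called about as often as genes in general. The edgeR quasi-likelihood test called Hspa12a, Dnajb1 and Hspb8, 3 of the 71 members it tested, against 5.11% of all genes, and called 0 members lower, with 6 lower at an unadjusted edgeR p under 0.05. The share of all genes at an unadjusted p was not computed. Counts at an unadjusted p, here and below, therefore cannot be set against genes in general. Of the 72 members 33 had a positive and 39 a negative log2 fold change (GFP+ over GFP-), with a median of -0.06 beside -0.01 over all genes tested. The 2 groups of libraries did not overlap for 11 members (15.3%), 6 higher and 5 lower in GFP+, beside 12.3% of all genes tested.

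Some calls in both directions depended on single libraries. When each of the 8 libraries was left out in turn, Bag3 lost its call in 6 of the fits, Hspd1 in 4 and Dnajc2 in 2. These are also the members that DESeq2 called and edgeR did not. Hspa12a, Dnajb1 and Hspb8 lost theirs in 0 of the 8 fits. On simulated counts DESeq2 made more false calls than edgeR or limma and also recovered more of the changed genes. Without GFP- replicate 2 or without GFP- replicate 4, 0 members were called lower by DESeq2, and without GFP+ replicate 2 or GFP+ replicate 3 there was 1. Leaving out the shallow GFP- replicate 3 raised the calls to 6 higher and 5 lower. Calls over all genes were 1439 with all libraries, 1837 without GFP- replicate 3 and between 969 and 1336 in the other 7 of these fits, in which 3 to 7 members were called. Dnajb1 and Hspb8 were called under all 17 other fits, which comprised edgeR, limma, 7 other DESeq2 settings and each library left out in turn.

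**Figure D1:**
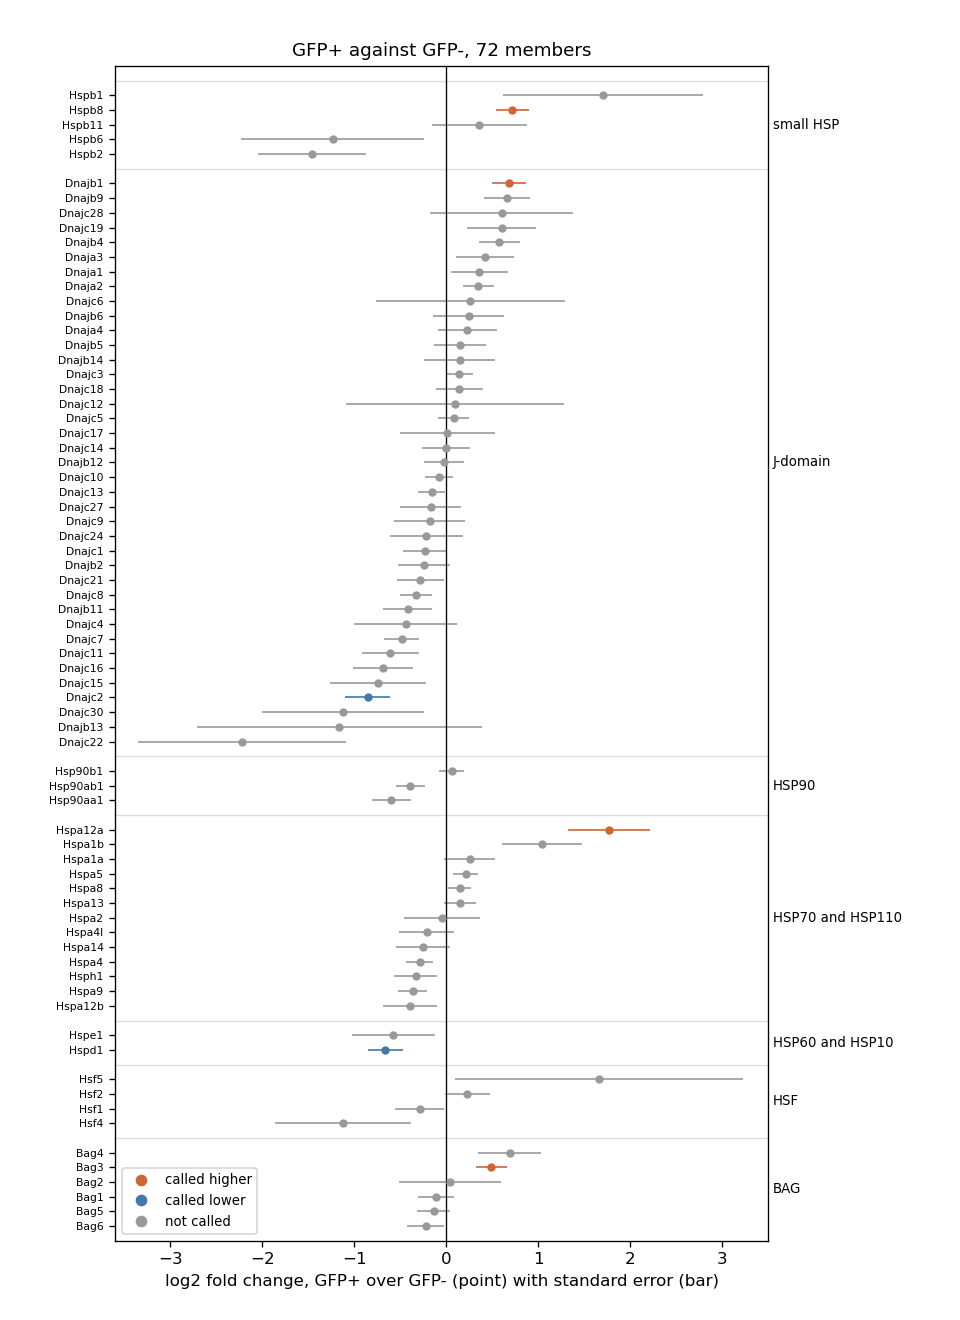
Log2 fold change of GFP+ over GFP- cells (points) with its standard error (bars) for the 72 members that reached a mean of 10 raw counts, grouped by family. Orange points were called higher and blue points lower by DESeq2, and grey points were not called. Most points lie near 0, and the members farthest from it, such as Dnajc22 at -2.22, mostly have wide bars, with Hspa12a at 1.77 a called exception.

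Among the 14 HSP70 and HSP110 genes 13 passed the minimum, 1 was called higher and 0 lower by DESeq2, with 2 lower at an unadjusted DESeq2 p under 0.05. The stress-inducible HSP70 proteins are encoded by Hspa1a (GRCm38 chromosome 17, 34969190 to 34972156, minus strand) and Hspa1b (chromosome 17, 34956436 to 34959238, minus strand), neighbouring genes whose windows upstream of the transcript start are almost the same. The 250 bases before each start are shown here because they are nearly the same, with 247 of 250 positions shared and 3 different, and because HSF1 is known to bind arrays of GAA and TTC units. The capitals mark the letters GAANNTTC, an inverted pair of such units, which a search of both strands found 104 bases before each start (RefSeq promoters, GRCm38.p6).
Hspa1a (chr17:34972157-34972406, minus strand): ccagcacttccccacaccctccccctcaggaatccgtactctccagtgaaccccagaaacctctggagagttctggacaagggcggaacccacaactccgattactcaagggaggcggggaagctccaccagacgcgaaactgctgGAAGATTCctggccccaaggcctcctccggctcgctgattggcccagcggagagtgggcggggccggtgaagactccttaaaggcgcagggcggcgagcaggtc
Hspa1b (chr17:34959239-34959488, minus strand): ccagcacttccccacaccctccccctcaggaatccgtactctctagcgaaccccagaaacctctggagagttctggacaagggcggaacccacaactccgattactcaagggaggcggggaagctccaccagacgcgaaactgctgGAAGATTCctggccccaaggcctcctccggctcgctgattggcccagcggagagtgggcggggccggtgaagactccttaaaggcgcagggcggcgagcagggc

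Hspa1a had normalised counts of 387, 295, 549 and 253 in GFP- replicates 1 to 4 and 505, 422, 436 and 341 in GFP+ replicates 1 to 4. The groups overlapped, and the highest value of all was that of GFP- replicate 3. The log2 fold change was 0.26 (± 0.27 SE, DESeq2 adjusted p = 0.666, edgeR adjusted p = 0.685). Hspa1b had normalised counts of 84.1, 172, 538 and 242 in GFP- replicates 1 to 4 and 549.9, 537, 461 and 476 in GFP+ replicates 1 to 4. Here 3 of the 4 GFP- libraries lay below every GFP+ library, whereas GFP- replicate 3, on 49 reads, lay among the GFP+ libraries. On the log2 scale GFP+ differed from GFP- by 1.04 (± 0.44 SE, DESeq2 adjusted p = 0.119, edgeR adjusted p = 0.167), and the adjusted p ran from 0.000114 to 0.304 over the 17 other fits. It was 1.59 with an adjusted p of 0.000114 without GFP- replicate 3, and limma with all libraries gave an adjusted p of 0.00478.

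The assignment of reads within this pair is uncertain, since 60.3% of the 50-base windows of Hspa1a exons and 62.3% of those of Hspa1b occur in another gene, most often in the other of the pair. Summed over both genes, the normalised counts were 471, 467, 1088 and 494 in GFP- replicates 1 to 4 and 1055, 959, 897 and 817 in GFP+ replicates 1 to 4. Again 3 GFP- libraries were at 467 to 494 and GFP- replicate 3 was above all GFP+ libraries.

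Hspa12a (chromosome 19, 58795750 to 58943654, minus strand), a distant relative of HSP70, showed the largest called difference among the members. Its normalised counts were 125, 141, 253 and 176 in GFP- replicates 1 to 4 and 1207, 269.9, 449 and 389 in GFP+ replicates 1 to 4. Every GFP+ library was above every GFP- library, but GFP+ replicate 1 was far above the other 3. The fitted log2 fold change was 1.77 (± 0.45 SE, DESeq2 adjusted p = 0.00202, edgeR adjusted p = 0.0290), a 3.42-fold difference. It was 1.18 without GFP+ replicate 1 (DESeq2 adjusted p = 0.00494), and of the other fits limma alone did not call it (adjusted p = 0.0580, range 0.000216 to 0.0580). Hspa12b, its paralog, had 214 ± 74.0 in GFP- and 167 ± 22.6 in GFP+ libraries (SD, n = 4 each) and was not called, with a log2 fold change of -0.39 (± 0.30 SE, DESeq2 adjusted p = 0.498).

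The constitutive HSP70 genes were not called. Hspa8 encodes HSC70, the housekeeping HSP70 of the cytosol, and had 9641 ± 907 in GFP- and 10704 ± 537 in GFP+ libraries (SD, n = 4 each), and its highest library was 1.30 times its lowest. On the log2 scale it differed by 0.15 (± 0.12 SE, DESeq2 adjusted p = 0.551), although 61.9% of its 50-base windows also occur elsewhere, chiefly in a pseudogene. Hspa5 encodes BiP, the HSP70 of the endoplasmic reticulum, and had 14843 ± 1422 in GFP- and 17173 ± 1298 in GFP+ libraries (SD, n = 4 each), a log2 difference of 0.21 (± 0.13 SE, DESeq2 adjusted p = 0.375). For Hspa9, which encodes mortalin of the mitochondrial matrix, the groups did not overlap, at 3175 to 4382 in GFP- and 2640.4 to 3009 in GFP+ libraries, and the log2 fold change was -0.37 (± 0.16 SE, DESeq2 adjusted p = 0.142, edgeR adjusted p = 0.235), which did not pass the test. The HSP110 genes Hsph1 and Hspa4, whose proteins exchange the nucleotide of HSP70, had log2 fold changes of -0.33 and -0.29 (DESeq2 adjusted p = 0.437 and 0.212). Hsph1 belongs to the classical HSF1 targets, and its GFP- and GFP+ libraries overlapped, at 958 to 1459 and 804 to 1312. The remaining members Hspa2, Hspa4l, Hspa13 and Hspa14 lay between -0.26 and 0.15 on the log2 scale, and none was called.

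**Figure D2:**
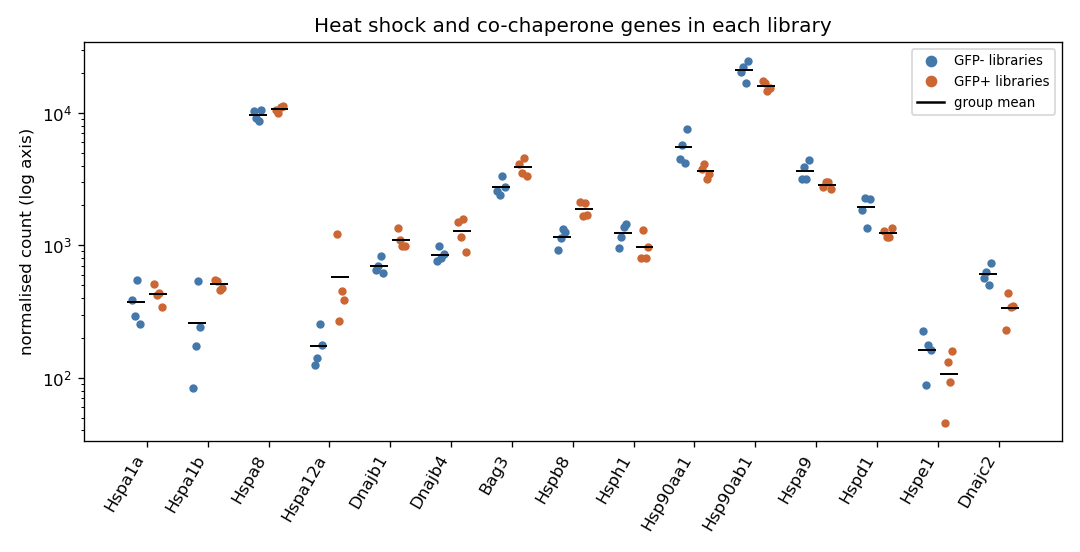
Normalised counts (log axis) of 15 members in each of the 4 GFP- libraries (blue) and 4 GFP+ libraries (orange), with the mean of each group as a black line. The groups stand apart for Hspa12a, Dnajb1, Bag3 and Hspb8 (GFP+ above) and for Hsp90aa1, Hspa9, Hspd1 and Dnajc2 (GFP- above), and they overlap for the other 7.

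All 3 HSP90 genes passed the minimum, 0 were called in either direction by DESeq2 or edgeR, and 2 were lower at an unadjusted p under 0.05 with both tools. Hsp90aa1, the stress-inducible HSP90 of the cytosol, had normalised counts of 4493, 5713, 4164 and 7524 in GFP- replicates 1 to 4 and 3760.5, 4142, 3185 and 3436 in GFP+ replicates 1 to 4. Every GFP- library lay above every GFP+ library, by a small margin between GFP- replicate 3 and GFP+ replicate 2. As a log2 fold change this gave -0.60 (± 0.21 SE, DESeq2 adjusted p = 0.0542, edgeR adjusted p = 0.107). Over the other 17 fits the adjusted p was 0.0138 to 0.197, and it passed the threshold in 6 of them, among these the fits without GFP- replicate 1 (0.0362) and without GFP- replicate 3 (0.0138). Of its 50-base windows 50.1% also occur in other genes.

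Hsp90ab1, the constitutive HSP90 and the most abundant member, had normalised counts of 20212, 22197, 16745 and 24837 in GFP- replicates 1 to 4 and 17398, 16925, 14515 and 15353 in GFP+ replicates 1 to 4. The ranges overlapped, through GFP- replicate 3. Its log2 fold change was -0.39 (± 0.16 SE, DESeq2 adjusted p = 0.113, edgeR adjusted p = 0.207), and without GFP- replicate 3 it was -0.49 with an adjusted p of 0.0106 (range over 17 fits 0.0106 to 0.320). Hsp90b1 encodes GRP94, the HSP90 of the endoplasmic reticulum, and had 13478 ± 1832 in GFP- and 14056 ± 519 in GFP+ libraries (SD, n = 4 each), a log2 difference of 0.06 (± 0.14 SE, DESeq2 adjusted p = 0.880). Both cytosolic genes had negative log2 fold changes and the reticulum gene one near 0, and this difference between genes was not tested.

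Of the mitochondrial chaperonin genes, Hspd1 (chromosome 1, 55077835 to 55088243, minus strand), which encodes HSP60, was lower in GFP+ cells. Its normalised counts were 1848, 2288, 1351 and 2242 in GFP- replicates 1 to 4 and 1279, 1162, 1155 and 1341 in GFP+ replicates 1 to 4. All GFP+ libraries lay below all GFP- libraries, and GFP- replicate 3 was the lowest of its group and next to GFP+ replicate 4. The log2 fold change was -0.66 (± 0.19 SE, DESeq2 adjusted p = 0.0106, edgeR adjusted p = 0.0563), a 1.58-fold higher level in GFP- cells. The call was lost without GFP- replicate 2 (adjusted p = 0.0829), GFP- replicate 4 (0.0718), GFP+ replicate 2 (0.0538) or GFP+ replicate 3 (0.0708), within a range of 8.38e-06 to 0.0829 over the 17 other fits. Of its 50-base windows 39.7% also occur in other genes, mostly in a pseudogene. Hspe1, which encodes the HSP10 lid, had 162 ± 57.0 in GFP- and 107 ± 49.0 in GFP+ libraries (SD, n = 4 each). The fold change was of like size on the log2 scale, -0.58 (± 0.45 SE, DESeq2 adjusted p = 0.515, edgeR adjusted p = 0.581), with overlapping groups and a wider error.

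Both genes lie head to head on chromosome 1, and the 250-base window of Hspe1 overlaps 1 of the 2 windows of Hspd1 by 215 bases. The other Hspd1 window adjoins the annotated start of this minus-strand gene. It does not reach the Hspe1 window and holds no match to the letters searched. The overlapping Hspd1 window (55087933 to 55088182) lies inside the annotated gene. The overlap holds a run of alternating GAA and TTC units, shown here because it is the longest such run among the windows of the members. The 30 bases printed are from the plus strand of GRCm38.p6, the capitals mark the 18-base run, and its last base lies 72 bases before the Hspe1 start.
Hspd1 and Hspe1 (chr1:55088053-55088082, plus strand): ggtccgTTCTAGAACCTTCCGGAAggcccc

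Windows of 56 of the 72 members were found, 74 promoters in all. At least 1 pair GAANNTTC or TTCNNGAA stood in 16 of the 74 (21.6%), in 14 genes, against 12.8% of 32851 promoters of all genes. A run of 3 alternating units stood in 4 (5.41%), of Dnajb6, Hspd1 and Hspe1, against 0.466% of all. These 4 windows hold 2 distinct runs, since the windows of Dnajb6 overlap and contain the same run, and Hspd1 and Hspe1 share theirs. Genes with a pair included Hspa1a, Hspa1b, Hsph1, Dnajb4, Dnaja1, Dnaja4 and Hspb1 as well as Hspd1. The windows of Dnajb1, Bag3, Hspb8 and Hspa12a, the members that were higher in GFP+ cells, held no match to these letters. For Dnajb1 and Hspa12a some of the sequence searched lies inside the annotated gene. Only exact letters inside the windows were searched, and imperfect or more distant units were not. Whether these genes lack sites for HSF1 was therefore not tested. Members without a window in the promoter table were Bag4, Hsf1, Hsf4, Hspa8, Hspa9, Hspa13, Hsp90aa1, Hsp90ab1, Hspb2, Dnajc2, Dnajc5, Dnajc11, Dnajc12, Dnajc18, Dnajc22 and Dnajc30.

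The J-domain genes (DNAJA, DNAJB and DNAJC) form the largest family, with 45 members, of which 39 passed the minimum, 1 was called higher and 1 lower. Dnajb1 (chromosome 8, 83608193 to 83612653, plus strand) encodes the classical HSP40, the main partner of HSP70 in the heat shock response. Its normalised counts were 654, 698, 824 and 612 in GFP- replicates 1 to 4 and 1351, 1102, 982 and 981 in GFP+ replicates 1 to 4. Every GFP+ library was above every GFP- library, and GFP+ replicate 1 was the highest. On the log2 scale GFP+ differed from GFP- by 0.68 (± 0.18 SE, DESeq2 adjusted p = 0.00440, edgeR adjusted p = 0.0369), a 1.61-fold difference, with adjusted p-values of 0.00102 to 0.0405 over the 17 other fits.

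Dnajc2 (chromosome 5, 21757267 to 21785251, minus strand) encodes MPP11, which works with HSP70 on nascent chains at the ribosome, and was lower in GFP+ cells. Its normalised counts were 568, 628, 505 and 733 in GFP- replicates 1 to 4 and 231, 436, 343 and 346 in GFP+ replicates 1 to 4. No GFP+ library reached the GFP- range, and GFP+ replicate 1 was the lowest. The fitted log2 fold change was -0.86 (± 0.24 SE, DESeq2 adjusted p = 0.00857, edgeR adjusted p = 0.0515), or 1.81-fold higher in GFP- cells. Without GFP- replicate 2 the DESeq2 adjusted p was 0.0509 and without GFP- replicate 4 it was 0.0799 (range over 17 fits 0.00319 to 0.0799). Melanocyte marker sums were also higher in every GFP- than in every GFP+ library, and their part in the lower values of Hspd1 and Dnajc2 was not tested. Fibroblast marker sums were higher in every GFP+ than in every GFP- library. The part of either marker set in the higher values of Hspa12a, Dnajb1, Hspb8 and Bag3 was not tested.

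Dnajb9 and Dnajb4 had the next smallest adjusted p among the J-domain genes with a positive log2 fold change and did not pass the test. Dnajb4, a close relative of Dnajb1, had 849 ± 99.2 in GFP- and 1273 ± 313 in GFP+ libraries (SD, n = 4 each), and GFP+ replicate 4 (891) lay inside the GFP- range. Its log2 fold change was 0.58 (± 0.22 SE, DESeq2 adjusted p = 0.0837, edgeR adjusted p = 0.126), and without GFP+ replicate 4 the adjusted p was 0.0114 (range 0.0114 to 0.294). Dnajb9 encodes ERdj4, a cofactor of BiP that is induced by stress of the endoplasmic reticulum. It did not overlap between the groups, at 619 to 989 in GFP- and 1009.6 to 1829 in GFP+ libraries, with 0.66 (± 0.25 SE, DESeq2 adjusted p = 0.0751, edgeR adjusted p = 0.109) on the log2 scale, and it passed without GFP- replicate 3 (adjusted p = 0.0494, range 0.0494 to 0.215). The other reticulum cofactors were close to 0 or negative, with Dnajc3 at 0.14, Dnajc10 at -0.08 and Dnajb11 at -0.42.

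Among the general HSP70 partners of the cytosol, Dnaja2 separated the groups without passing the test, at 1144 to 1709 in GFP- and 1775 to 1983 in GFP+ libraries, and on the log2 scale differed by 0.35 (± 0.17 SE, DESeq2 adjusted p = 0.205). Dnaja1 ranged from 335 to 689 in GFP- and from 472 to 1004 in GFP+ libraries, and its log2 fold change was 0.36 (DESeq2 adjusted p = 0.558). Dnajc7, a cofactor shared by HSP70 and HSP90, did not overlap in the other direction, at 729 to 965 in GFP- and 518 to 687 in GFP+ libraries, and on the log2 scale differed by -0.48 (± 0.19 SE, DESeq2 adjusted p = 0.0895). Dnajb2 and Dnajb6, which keep aggregation-prone proteins soluble, had log2 fold changes of -0.24 and 0.25. For the vesicle cofactors Dnajc5 and Dnajc6, which encode cysteine string protein and auxilin, these were 0.08 and 0.26. The mitochondrial cofactors had values of both signs, with Dnajc11 at -0.61, Dnajc15 at -0.74 and Dnajc30 at -1.12 beside Dnaja3 at 0.42 and Dnajc19 at 0.60, and each of them overlapped between the groups. Dnajc16 stood at -0.69. None of these was called, and 18 of the 39 J-domain genes were positive and 21 negative.

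Of the 8 small heat shock protein genes 5 passed the minimum, and Hspb8 was called higher. Hspb8 (chromosome 5, 116408491 to 116422864, minus strand) encodes HSP22, which forms a complex with BAG3 that delivers damaged cytoskeletal proteins to autophagy. Its normalised counts were 923, 1125, 1318 and 1263 in GFP- replicates 1 to 4 and 2130.2, 1663, 2071 and 1699 in GFP+ replicates 1 to 4. All GFP+ libraries exceeded all GFP- libraries, and GFP- replicate 1 was the lowest. As a log2 fold change this gave 0.72 (± 0.18 SE, DESeq2 adjusted p = 0.00186, edgeR adjusted p = 0.0230), a 1.64-fold difference, with adjusted p-values of 0.00103 to 0.0248 over the 17 other fits.

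The other small heat shock genes were at low levels with wide errors. Skeletal muscle markers, which would mark a tissue rich in these proteins, summed to 6.14 to 27.2 CPM in GFP- and 7.18 to 20.8 CPM in GFP+ libraries. Hspb1, which encodes HSP27 and is a classical inducible gene, had normalised counts of 2.71, 14.3, 11 and 28.4 in GFP- replicates 1 to 4 and 0, 79.1, 60.7 and 50.3 in GFP+ replicates 1 to 4. GFP+ replicate 1 had no read while the other GFP+ libraries were the highest of all, and 48.8% of its 50-base windows also occur elsewhere, mostly in a pseudogene. The log2 fold change was 1.71 (± 1.08 SE, DESeq2 adjusted p = 0.384, edgeR adjusted p = 0.492). Hspb2 had 36.6 ± 18.1 in GFP- and 14.3 ± 4.34 in GFP+ libraries (SD, n = 4 each), differing by -1.46 (± 0.59 SE, DESeq2 adjusted p = 0.105, edgeR adjusted p = 0.379) on the log2 scale, and a DESeq2 adjusted p of 0.0161 without GFP- replicate 3, where it had 1 read (range 0.0161 to 0.379). Hspb6 and Hspb11 were not called, at log2 fold changes of -1.23 and 0.36.

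All 6 BAG genes passed the minimum and 1 was called higher. Bag3 (chromosome 7, 128523616 to 128546981, plus strand) encodes the partner of HSPB8 and an inducible cofactor of HSP70. Its normalised counts were 2583, 2394, 3307 and 2771 in GFP- replicates 1 to 4 and 4083, 3506, 4547 and 3331 in GFP+ replicates 1 to 4. The groups did not overlap, but GFP+ replicate 4 was just above GFP- replicate 3. On the log2 scale GFP+ differed from GFP- by 0.49 (± 0.17 SE, DESeq2 adjusted p = 0.0441, edgeR adjusted p = 0.0914), a 1.41-fold difference. It was called in 8 of the 17 other fits (adjusted p 0.00935 to 0.193). The call was lost without GFP- replicate 1 (0.135), 2 (0.177) or 4 (0.102) and without GFP+ replicate 1 (0.0997), 2 (0.0628) or 3 (0.193).

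The remaining BAG genes were not called. Bag1, a nucleotide exchange factor that links HSP70 to the proteasome, had 1515 ± 199 in GFP- and 1418 ± 284 in GFP+ libraries (SD, n = 4 each), and Bag6, which guards newly made membrane proteins, had 1572 ± 209 in GFP- and 1347 ± 284 in GFP+ libraries (SD, n = 4 each). Bag4, known as a silencer of death receptors, had a log2 fold change of 0.69 (± 0.34 SE, DESeq2 adjusted p = 0.224), Bag5 of -0.14 and Bag2, an inhibitor of the ubiquitin ligase CHIP, of 0.04.

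Of the 5 heat shock factor genes 4 passed the minimum and 0 were called by DESeq2 or edgeR, with 0 at an unadjusted p under 0.05 in both. Hsf1, the main activator of the response, had normalised counts of 299.8, 292, 429 and 360.3 in GFP- replicates 1 to 4 and 192, 364, 247 and 301 in GFP+ replicates 1 to 4, and the groups overlapped. Its log2 fold change was -0.29 (± 0.27 SE, DESeq2 adjusted p = 0.600). Hsf1 is controlled mostly at the protein level, so that its transcript is not a measure of its activity. Hsf2 had 356 ± 41.4 in GFP- and 416 ± 103 in GFP+ libraries (SD, n = 4 each), a log2 difference of 0.23 (± 0.25 SE, DESeq2 adjusted p = 0.668). Hsf4 and Hsf5 were near the floor, at 52.2 ± 37.8 in GFP- and 22.6 ± 8.65 in GFP+ libraries (SD, n = 4 each) for Hsf4 and 3.34 ± 4.96 in GFP- and 12.7 ± 10.9 in GFP+ libraries (SD, n = 4 each) for Hsf5.

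The 11 members under the minimum were Hsf3, Hspa1l, Hspb3, Hspb7, Hspb9, Dnajb3, Dnajb7, Dnajb8, Dnajc5b, Dnajc5g and Dnajc25. Several of them are known from testis, muscle or heart. Dnajb3 and Dnajc25 had 0 counts in all libraries, which over 120864303 reads allows a level of up to 0.0248 CPM, counting error only. For Dnajc25, 7.18% of the 50-base windows also occur in other genes, mostly in Gm20503. How its reads were counted was not tested, so this limit may not hold for its transcript. The mean raw count just inside the minimum was 11.9, for Dnajc12, and just outside it 7.88, for Hspb7.

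Levels were then compared between members as normalised counts per kilobase of annotated exon. Hsp90ab1 stood first with 7002 ± 1137 in GFP- and 5351 ± 448 in GFP+ libraries (SD, n = 4 each), and its lowest library was above the highest of any other member. Hspa5 with 3509.7 ± 336 in GFP- and 4061 ± 307 in GFP+ libraries and Hsp90b1 with 3343 ± 454 in GFP- and 3486 ± 129 in GFP+ libraries followed and overlapped each other. Hspa8 was next at 2242 ± 211 in GFP- and 2489 ± 125 in GFP+ libraries, and did not overlap with Hsp90b1. Bag3 (1079 ± 154 in GFP- and 1509 ± 217 in GFP+ libraries), Hsp90aa1 (1392 ± 387 in GFP- and 924 ± 105 in GFP+ libraries) and Bag1 (1123 ± 147 in GFP- and 1051 ± 210.3 in GFP+ libraries) overlapped each other over the 8 libraries. The transcripts of the inducible pair were less abundant, and Hspa1a (125 ± 44.3 in GFP- and 144 ± 22.8 in GFP+ libraries) and Hspa1b (92.4 ± 70.3 in GFP- and 181 ± 15.7 in GFP+ libraries) were far below Hspa8 in every library. The place of some genes in this order is uncertain, because the division is by the whole exon length while 61.9% of the windows of Hspa8, 50.1% of those of Hsp90aa1 and 60.3% and 62.3% of those of Hspa1a and Hspa1b occur in other genes, against 4.06% for Hsp90ab1, 3.65% for Hsp90b1 and 0 for Hspa5, Bag1 and Bag3. How reads of such windows were counted was not tested.

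**Figure D3:**
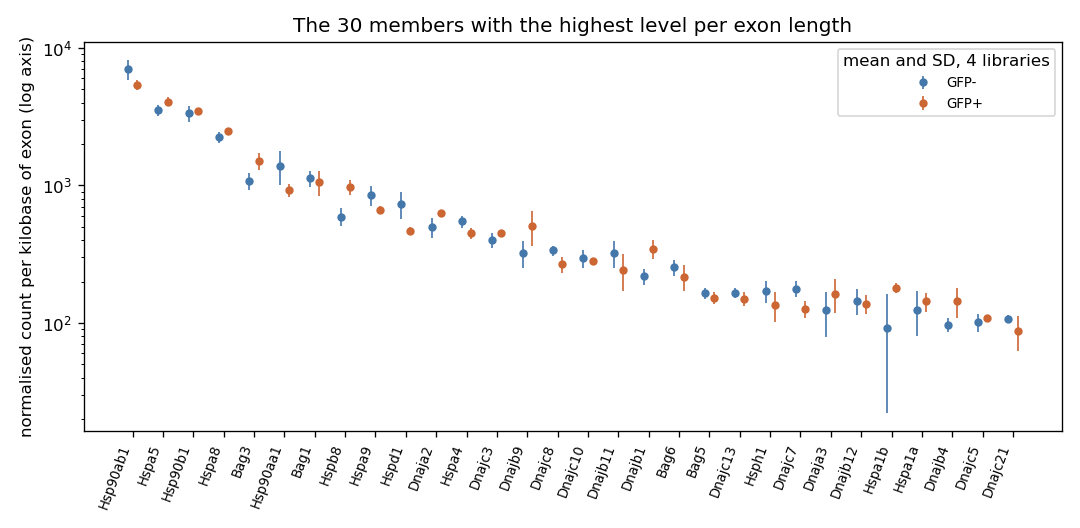
Normalised count per kilobase of exon (log axis) of the 30 members with the highest mean level, as mean and SD of the 4 GFP- (blue) and 4 GFP+ (orange) libraries. Hsp90ab1, Hspa5, Hsp90b1 and Hspa8 form the upper end, from 2242 to 7002 in the GFP- means.

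Members took 1.06% ± 0.105 (SD, n = 4) of all counts in GFP- libraries and 0.921% ± 0.0624 in GFP+ libraries. The ranges, 0.978% to 1.2% and 0.853% to 0.978%, met without overlap. Without Hsp90ab1, the most abundant member, they overlapped, at 0.789% to 0.935% in GFP- and 0.711% to 0.827% in GFP+ libraries. With library sizes scaled by TMM (trimmed mean of M-values) the means were 0.984% and 0.965%. Hsp90ab1, Hspa5, Hsp90b1, Hspa8, Hsp90aa1 and Bag3 made up 64.2% of the members' counts (17.6% for Hsp90ab1 alone), so that a few abundant genes make up most of this share. Among the 27 members whose mean normalised count reached 500, the ratio of the highest to the lowest library was 1.30 to 3.56 with a median of 1.73, and 21 had a log2 fold change within 0.5 of 0.

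The inducible part of the response was read next from a list of 24 genes best known as HSF1 targets, 17 of which are members. DESeq2 called 3 higher in GFP+ cells (Dnajb1, Hspb8 and Bag3) and 2 lower (Hspd1 and Fkbp4), and edgeR called 3. Over all genes tested DESeq2 called 4.66% higher and 4.76% lower, and edgeR called 5.11%. The list had 12 positive and 12 negative values and a median log2 fold change of 0.00. Fkbp4, which encodes an HSP90 co-chaperone of steroid receptors, had 1489.9 ± 373 in GFP- and 532 ± 109 in GFP+ libraries (SD, n = 4 each), and it had the largest difference of the called genes of the list, -1.50 (± 0.24 SE, DESeq2 adjusted p = 7.90e-08, edgeR adjusted p = 0.00209). Cryab, a small heat shock gene that the symbols of the rule do not cover, had a log2 fold change of -0.61 (± 0.26 SE, DESeq2 adjusted p = 0.142). Between 3 and 9 genes of the list were called when 1 library was left out, with 3 when replicate 2 or 4 of GFP- or replicate 2 or 3 of GFP+ was absent, and 9 without GFP- replicate 3.

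In the other folding and degradation machinery most log2 fold changes were negative, for 29 of 35 co-chaperones, 7 of 8 CCT subunits and 23 of 31 proteasome subunits. Of 36 co-chaperones outside the rule 35 were tested, 0 were called higher, with 1 at an unadjusted p under 0.05 by DESeq2 and 1 by edgeR, and 2 were called lower, Fkbp4 and Ppp5c. Ppp5c, a phosphatase bound to HSP90, had a log2 fold change of -0.71 (± 0.19 SE, DESeq2 adjusted p = 0.00353, edgeR adjusted p = 0.0401). Median values were -0.21 for this list, -0.27 for the 8 subunits of the CCT chaperonin, which folds actin and tubulin, and -0.23 for 31 proteasome subunits, beside -0.01 over all genes tested. Cct7 was the 1 CCT subunit called lower, at -0.76 (± 0.23 SE, DESeq2 adjusted p = 0.0141, edgeR adjusted p = 0.0495). Psmc1 and Psmd7 were called lower among the proteasome genes by DESeq2, at log2 fold changes of -0.58 and -0.51, and edgeR called 0 proteasome genes, with 6 at an unadjusted edgeR p under 0.05. Melanocyte markers moved the same way, with 10 of 10 called lower and sums of 2525 to 7789 CPM in GFP- and 370.2 to 1071 CPM in GFP+ libraries, and their part in the values of these lists, Fkbp4, Ppp5c and Cct7 included, was not tested.

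Immediate early genes, which tissue handling is also known to induce, were mostly higher in GFP+ cells. Of 24 such genes 17 were called higher and 0 lower by DESeq2, with 0 lower also at an unadjusted p, and edgeR called 11 higher. Among genes in general DESeq2 called 4.66% higher and 4.76% lower, and edgeR called 5.11% in either direction. All 24 had positive log2 fold changes, with a median of 0.60 beside -0.01 over all genes tested. Fos and Jun had log2 fold changes of 0.70 and 0.65 (DESeq2 adjusted p = 3.75e-08 and 1.42e-05). Fos had normalised counts of 12622, 13545, 12119 and 11758 in GFP- replicates 1 to 4 and 21171, 19049, 20397 and 20843 in GFP+ replicates 1 to 4, so that both groups carried it at a high level. Without GFP+ replicate 1 the number called higher was 11. The difference between this list and the inducible heat shock genes was not tested, nor was the part of handling in either. Cell type markers differed between the groups as well, with 6 of 9 fibroblast markers called higher (28349 to 54426 CPM in GFP- and 63766 to 64912 CPM in GFP+ libraries) and 10 of 10 melanocyte markers called lower, and their part in the immediate early genes was not tested.

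**Figure D4:**
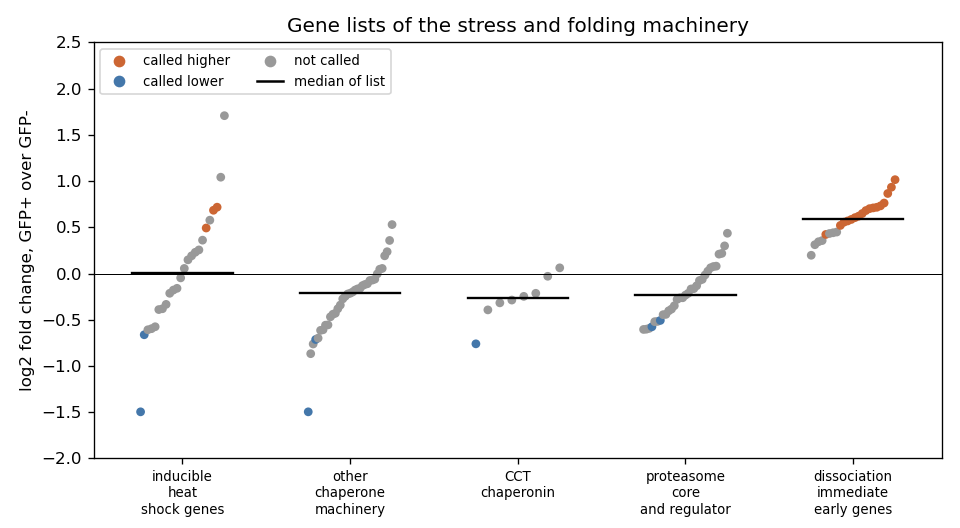
Log2 fold change of GFP+ over GFP- cells for each tested gene of 5 lists, sorted within a list, with the median of the list as a black line. Orange and blue points were called higher and lower by DESeq2, and grey points were not called. Inducible heat shock genes fall on both sides of 0 (median 0.00), and the immediate early genes all lie above 0 (median 0.60).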

How the data were processed

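Cells of 2 groups, 4 GFP+ and 4 GFP- libraries by their labels, were profiled by strand-specific RNA-seq of total RNA. Per the study's methods and the labels, the authors trimmed reads with cutadapt 3.4, mapped them to GRCm38 with STAR 2.7.3a and assigned them to genes with featureCounts 2.0.1. The authors deposited 1 table that holds whole-number raw counts, from which all values here start. It also holds a deposited normalised score, the raw count over the DESeq2 size factor, rounded. This score served to check the size factors, which gave the deposited values within rounding for all 8 libraries. Columns with the authors' own comparison (group means, fold changes, p-values, dispersions) were not used. To find members whose reads could match other genes, their exons were cut into 50-base windows and searched in the exons of all other genes.

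Genes with a count (29043) were fitted with DESeq2 1.42.0 in R 4.3.3. The tool is that of the study's methods, in a later version. The model had a term for the group, with 2-sided Wald tests and Benjamini-Hochberg adjustment over the whole table, and genes were called at an adjusted p under 0.05. The edgeR 4.0.16 quasi-likelihood test (TMM) is given beside it. The alternatives were limma 3.58.1 (voom), DESeq2 with other size factors (TMM, abundant genes, or all but the members), with a filter on raw counts, with either of its own filters turned off or with a replicate block, a threshold of 0.01, and each library left out in turn. The code was tested on simulated data, on which DESeq2 recovered more of the changed genes than edgeR or limma and also made more false calls. Replicates of a group were distinct libraries, with a chi-square per degree of freedom of 9.68 to 73.0 between their counts. Coordinates and exon lengths (union of annotated exons) came from GENCODE M21, in which 99.8% of identifiers and all 83 members were found, and promoter windows from RefSeq (GRCm38.p6).

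Named members were those called, a set of well known family members, and the 5 highest and 5 lowest log2 fold changes above a normalised mean of 50. Dnaja3, Dnaja4, Dnajb11, Dnajc7, Dnajc10, Dnajc12, Dnajc19, Dnajc22, Dnajc30, Hspa4l and Hspb11 were named after their values were seen, as were Psmc1 and Psmd7. The members, the gene lists and the tests were chosen with earlier results of these data known. Depth was 883144 to 31666734 counts per library. The libraries hold reads and not molecules, so that limits given for counts cover counting error only.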

Additional observations from a re-analysis of the deposited data

Results flagged for a closer look

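A single library stood apart from the other 3 of its group by Dixon's criterion, the gap to the nearest library over the range of the group, in 4 of 90 groups of members examined, and chance gives about 1 in 20. Bag1 was lowest in GFP- replicate 3, with a normalised count of 1219.6. Bag2 was highest in GFP+ replicate 1, with 154. Hsf4 was lowest in GFP+ replicate 1, with 9.72. Hspa4 was highest in GFP+ replicate 2, with 2799.8. None of the 4 genes was called between the groups by DESeq2 or edgeR.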

How the results depend on the processing

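The number of members called higher in GFP+ cells stayed within 1.5 times its value in every setting (3 to 6, with 4 in the reported fit). The number called lower was 2, and it was 0 with edgeR, 1 at an adjusted p under 0.01, and 0 to 5 with 1 library left out. Inducible heat shock genes called were 5, and 3 with edgeR, 8 with limma, 3 at an adjusted p under 0.01, and 3 to 9 with 1 library left out. Immediate early genes called higher were 17, and 11 with edgeR, 11 at an adjusted p under 0.01, and 11 to 17 with 1 library left out; these counts were added to the settings after the data were seen. Over all genes DESeq2 called 1439 and edgeR 732. Without Hsp90ab1 the members took 0.848% of GFP- and 0.778% of GFP+ counts, and the ranges of the groups overlapped.

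For the 45 members named by rule, 722 of 765 values under other settings kept direction and side of the threshold, 18 lost a call, 13 gained one and 12 changed sign. Where a setting gave no adjusted p, as with the replicate block for Hsf5, direction alone was judged. The changes of sign among these 45 were in 4 uncalled genes. The log2 fold change of Bag2 was -0.52 with limma, -0.0901 with the replicate block and -0.65 to 0.24 with 1 library left out. That of Dnajc6 was -0.20 to 1.15, that of Hspa14 -0.38 to 0.0273 and that of Hspa2 -0.35 to 0.14 with 1 library left out. Of the members named after their values were seen, Hspa4l (-0.38 to 0.0649) and Dnajc12 (-0.46 to 0.645) also changed sign over the other fits. The cause of these changes was not tested, beyond the fewer libraries of a fit that leaves 1 out.

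The replicate number was tried as a block. Deviations of same-numbered libraries from their group means correlated at -0.158 to 0.262 over 8812 genes, 1 of 4 above 0.1. Of the 4 libraries 1 correlated best with its own number. This did not show a pairing, and with 4 libraries per group it cannot exclude one. With the replicate block 5 members were called higher and 3 lower (adding Hspa1b and Hsp90aa1), with 7 inducible heat shock and 16 immediate early genes called.

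Depth limits the genes with few reads most. GFP- replicate 3 had 883144 counts, and members with a normalised count under 100 rested there on fewer than 10 reads.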

Other observations

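Hsp90ab1 is often used as a reference gene for qPCR, and its transcript may be set beside those of Hprt and Gapdh, which serve the same purpose. Hprt had normalised counts of 403 ± 37.8 in GFP- and 499.6 ± 195 in GFP+ libraries (SD, n = 4 each), and DESeq2 gave 0.31 ± 0.28 (SE) on the log2 scale (adjusted p = 0.599). Gapdh had 50.2, 1066, 461 and 121 in GFP- replicates 1 to 4 and 103, 135, 102 and 68.4 in GFP+ replicates 1 to 4. The groups interleaved for Gapdh, with GFP- replicates 2 and 3 above all GFP+ libraries, GFP- replicate 1 below them and GFP- replicate 4 among them, and DESeq2 gave -2.06 ± 0.68 (SE) on the log2 scale (adjusted p = 0.0311), beside an edgeR adjusted p of 0.133. Of these 3 genes Hsp90ab1 had the smallest spread over the 8 libraries, with a ratio of 1.71 between the highest and the lowest, beside 2.18 for Hprt and 21.2 for Gapdh. Shared 50-base windows were searched for the members only. The assignment of reads to Hprt and Gapdh, and its part in their spread, was not tested.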
